A study of Mus musculus with 4 samples.

Results

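Fos, Fosb, Jun, Junb, Jund, Egr1, Atf3, Ier2, Dusp1 and Zfp36 were followed across the cells of mouse sarcomas. These 10 immediate early genes were chosen by symbol, and all 10 were present in both deposited tables, among 18220 gene symbols in all. Tumors of an allograft sarcoma model grew in the hind limb, and the labels give the background strain as 129/SvJae and Trp53flox/flox in the genotype of every sample. Vehicle mice (n = 2) received phosphate-buffered saline by intraperitoneal injection. Digoxin mice (n = 2) received 2 mg/kg of digoxin, a cardiac glycoside that inhibits the sodium-potassium pump, prepared in DMSO and diluted in saline. Injections came every 24 h and tumors were taken after 4 doses. Both groups share the strain and genotype, and the labels state no DMSO in the vehicle. The labels do not say whether the 4 tumors came from 1 sarcoma line, and the mouse is taken as the replicate.

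Immediate early genes are transcribed within minutes of a signal, without new protein synthesis, when kinase cascades activate factors already bound at their promoters. Fos and Jun family proteins pair through leucine zippers into the transcription factor AP-1. Egr1 is a zinc finger factor, Atf3 is a bZIP factor of the stress response, and Ier2 is a short-lived nuclear regulator. Dusp1 removes phosphate from MAP kinases, and Zfp36 binds AU-rich mRNA and speeds its decay, so both damp responses of this kind. Enzymatic dissociation of tissue is itself known to induce these genes. Each tumor was shaken for 45 min at 37 °C in collagenase type IV, dispase and trypsin, and all cells of a mouse went through that step together. Populations were therefore compared within a mouse. A response to dissociation that differs between cell types stays in such a comparison and cannot be told apart from levels in the tumor. The labels also mention plating for culture, and whether the sequenced cells were plated is not given in the sources used here.

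Levels are means over cells of the gene's UMIs per 1000000 UMIs of that cell (CPM). A unique molecular identifier (UMI) tags 1 captured RNA molecule at its 3′ end, so a level does not scale with gene length. The 4 mice gave 3976 to 6269 malignant and 3014 to 3344 non-malignant cells each, under the deposited cell types. Malignant cells were deeper (median 46799 to 57658 UMIs per cell in each mouse) than macrophages (16070.0 to 17049) or T cells (7244 to 8232). The type named Epithelial carried endothelial markers (Cdh5 at 888 CPM, Pecam1 at 841 CPM) and nearly no Epcam (0.122 CPM). The type named Microglia had Siglech at 2449 CPM, a plasmacytoid dendritic marker, and Tmem119, a microglial one, at 1.43 CPM. Both are called by their deposited names below. The host of vehicle mouse 2 stood apart, with Xist in macrophages at 0.161 CPM against 635 to 753 CPM in the other 3 mice. Ddx3y, a gene of the Y chromosome, was at 87.7 CPM there against 1.74 to 2.28 CPM. By these genes the host of vehicle mouse 2 was male and the other 3 were female. The vehicle group thus mixes host sexes and the digoxin group does not, and the part of host sex was not tested. Of 31498 cell barcodes, 113 occurred in more than 1 library.

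The sequences just upstream of the start sites are shown for the 5 members, of the 8 in the table, that hold the core of the cAMP response element. Each is the 250 bases before the start site, 5′ to 3′ on the gene's own strand, from RefSeq on GRCm38.p6. Fos lies at chr12:85473640-85473889 on the plus strand. On the minus strand lie Fosb at chr7:19310046-19310295, Junb at chr8:84978749-84978998, Atf3 at chr1:191183334-191183583 and Dusp1 at chr17:26508473-26508722. Capitals mark matches to the motifs named after the sequences.
Fos: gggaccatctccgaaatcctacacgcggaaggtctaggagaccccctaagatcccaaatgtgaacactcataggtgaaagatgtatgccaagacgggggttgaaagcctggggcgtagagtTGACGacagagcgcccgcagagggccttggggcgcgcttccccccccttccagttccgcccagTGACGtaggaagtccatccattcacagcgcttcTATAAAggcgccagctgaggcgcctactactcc
Fosb: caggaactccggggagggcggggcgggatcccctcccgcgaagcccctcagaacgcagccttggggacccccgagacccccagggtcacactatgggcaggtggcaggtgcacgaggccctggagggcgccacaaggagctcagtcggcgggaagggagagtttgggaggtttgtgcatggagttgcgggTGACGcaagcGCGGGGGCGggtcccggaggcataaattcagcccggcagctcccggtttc
Junb: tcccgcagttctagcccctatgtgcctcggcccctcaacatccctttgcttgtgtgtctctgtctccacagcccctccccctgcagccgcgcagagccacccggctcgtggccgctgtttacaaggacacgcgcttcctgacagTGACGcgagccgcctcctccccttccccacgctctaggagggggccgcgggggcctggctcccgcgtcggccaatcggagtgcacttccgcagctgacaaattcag
Atf3: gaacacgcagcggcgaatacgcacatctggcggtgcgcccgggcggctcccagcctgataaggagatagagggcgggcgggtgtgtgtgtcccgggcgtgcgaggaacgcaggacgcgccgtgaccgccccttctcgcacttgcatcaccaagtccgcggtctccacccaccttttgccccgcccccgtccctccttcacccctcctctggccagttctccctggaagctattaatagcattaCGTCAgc
Dusp1: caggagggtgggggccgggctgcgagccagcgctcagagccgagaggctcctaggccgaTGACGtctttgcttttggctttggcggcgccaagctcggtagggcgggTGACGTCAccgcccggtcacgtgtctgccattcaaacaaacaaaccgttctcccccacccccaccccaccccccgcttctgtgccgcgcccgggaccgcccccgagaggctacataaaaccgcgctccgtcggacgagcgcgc
Both strands were searched for the cAMP response element TGACGTCA, its core TGACG (which lies within it), the AP-1 site TGANTCA, the EGR site GCGNGGGCG, TATAAA, and the CArG box bound by serum response factor. The core, which chose the 5 genes shown, occurred in 17.8% of all 32851 windows of that length. In Fos it lay 66 to 62 and 129 to 125 bases before the start, and in Atf3 it lay 7 to 3 bases before the start. The complete element occurred in Dusp1 alone, 143 to 136 bases before the start, against 1.55% of all windows. TATAAA occurred in Fos, 33 to 28 bases before the start (12.4% of windows), the EGR site in Fosb and Zfp36 (4.70%), the CArG box in Zfp36 (1.47%) and the AP-1 site in none (6.75%). Egr1 and Ier2 have no entry in the table. A match describes these letters only, and the lack of one covers only these 250 bases and these exact patterns.

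Fos and Fosb were highest in fibroblasts and malignant cells or macrophages, and lowest in lymphocytes or osteoclasts. Fos, the AP-1 partner that cannot pair with itself, was at 2393 and 2694 CPM with vehicle and 2464 and 1969 CPM with digoxin in malignant cells. Macrophages had 2149 and 2339 CPM with vehicle and 1982 and 1640.2 CPM with digoxin. NK cells had 253 and 161 CPM with vehicle and 317 and 208 CPM with digoxin. All 4 malignant values thus lay above all 4 NK values, and the macrophage values overlapped the malignant ones. Within each mouse the macrophage value was 0.804 to 0.898 times the malignant one. In order of mean, Fos ran from fibroblasts through malignant cells, neutrophils, macrophages, osteoclasts, Epithelial, Microglia, B cells, dendritic cells and T cells to NK cells. Of the 10 neighbouring pairs in this order, 9 overlapped in their ranges over mice, and Epithelial and Microglia were apart. Fosb, a close relative of Fos, was at 1043 and 1628 CPM with vehicle and 1637 and 1452 CPM with digoxin in fibroblasts, above its range of 528 to 759 CPM in macrophages, the next in order. Its other 9 neighbouring pairs overlapped. Osteoclasts combined a Fos level of 993 to 1712 CPM with a Fosb level of 113 to 175 CPM. Fos exceeded Fosb by 7.91 to 15.1 times in osteoclasts and by 3.42 to 3.97 times in malignant cells. These ratio ranges do not meet.

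Jun, Junb and Jund did not share an order. Jun, the founding partner of Fos, was at 1568 and 2736 CPM with vehicle and 2172 and 1744 CPM with digoxin in fibroblasts. In malignant cells it was at 1347 and 1382 CPM with vehicle and 1212 and 986 CPM with digoxin. In T cells it was at 105 and 155 CPM with vehicle and 146 and 109 CPM with digoxin. Fibroblasts lay above malignant cells, and Epithelial cells (890.1 to 1232 CPM) lay above neutrophils, while the other 8 neighbouring pairs overlapped. Junb, which can restrain Jun, was by contrast high in T cells, at 2239 and 1759 CPM with vehicle and 2498 and 1878 CPM with digoxin. Malignant cells had 2408 and 2903 CPM with vehicle and 2666 and 2369 CPM with digoxin, which overlapped the highest T cell value. Microglia had the lowest Junb (593 to 853 CPM). The ratio of Junb to Jun was 11.3 to 21.4 in T cells, 3.32 to 7.91 in macrophages and 0.774 to 1.05 in fibroblasts. The 3 ranges were apart. Jund, the Jun family member with the most even expression in most tissues, differed by 2.99 times between the highest and lowest mean of the 8 populations tested, the smallest such fold of the 10 genes. All 10 of its neighbouring pairs overlapped, from malignant cells (1172 to 1708 CPM) down to osteoclasts (458 to 527 CPM).

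**Figure D1:**
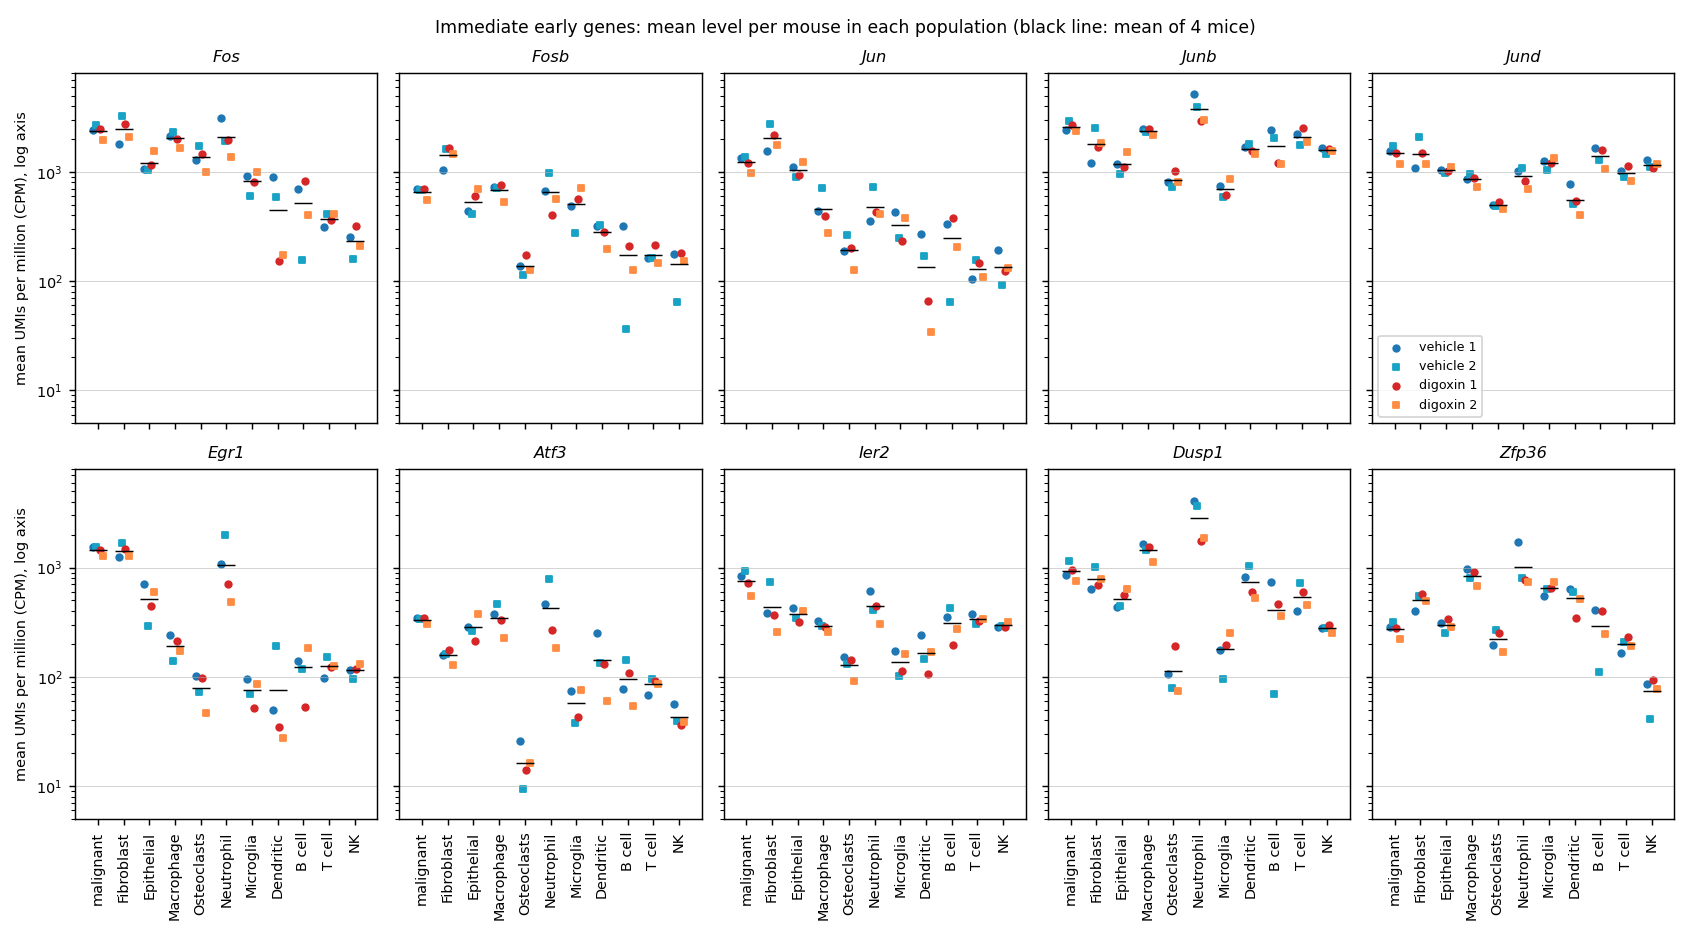
Mean CPM on a log axis of each gene (panels) in malignant cells and 10 deposited host types, with 1 point per mouse (blue, vehicle; red and orange, digoxin) and a black line at the mean of 4 mice. Among the 8 populations tested, 7 genes (all but Ier2, Junb and Jund) spread over more than 10-fold, and Jund over 2.99-fold.

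Egr1 and Atf3 spread the most. Egr1 was at 1533 and 1552 CPM with vehicle and 1463 and 1278 CPM with digoxin in malignant cells and at 1243 to 1695 CPM in fibroblasts. In macrophages it was at 241 and 141 CPM with vehicle and 212 and 171 CPM with digoxin. Every macrophage value was below every malignant value, although Fos overlapped between the same populations. Egr1 reached 0.576 to 0.649 times the Fos level in malignant cells and 0.0601 to 0.112 times in macrophages. Its order below Epithelial cells (293 to 702 CPM), from macrophages to Microglia, overlapped at each step. Atf3 was at 345 and 338 CPM with vehicle and 345 and 307 CPM with digoxin in malignant cells and at 376 and 467 CPM with vehicle and 328 and 225 CPM with digoxin in macrophages. Osteoclasts had 25.7 and 9.45 CPM with vehicle and 13.9 and 16.3 CPM with digoxin, the lowest of all. For Atf3 the ranges parted between Epithelial cells and fibroblasts and between NK cells and osteoclasts. Ier2 was highest in malignant cells, at 831 and 930.2 CPM with vehicle and 723 and 554 CPM with digoxin, and lowest in osteoclasts, at 92.0 to 152 CPM. Of its neighbouring pairs, only macrophages and dendritic cells were apart.

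Dusp1 and Zfp36 were highest in neutrophils and macrophages, and Dusp1 was lowest in osteoclasts. Dusp1, a phosphatase of p38, JNK and ERK, was at 1659.7 and 1439.8 CPM with vehicle and 1544 and 1132 CPM with digoxin in macrophages. Malignant cells had 852 and 1149.7 CPM with vehicle and 940.0 and 755 CPM with digoxin. Osteoclasts had 107 and 79.7 CPM with vehicle and 190.4 and 74.3 CPM with digoxin. The macrophage value of digoxin mouse 2 fell below the malignant value of vehicle mouse 2, so the groups overlapped between mice, but macrophages were higher within each of the 4 mice (1.25 to 1.95 times). Zfp36, also called tristetraprolin, was at 972 and 797 CPM with vehicle and 905 and 678 CPM with digoxin in macrophages. In malignant cells it was at 287 and 319 CPM with vehicle and 278 and 220.3 CPM with digoxin, and in NK cells at 85.1 and 41.5 CPM with vehicle and 93.1 and 77.3 CPM with digoxin. Microglia, low in most members, held Zfp36 at 552 to 741 CPM, within the range spanned by macrophages and fibroblasts. Zfp36 exceeded Egr1 by 3.96 to 5.67 times in macrophages, whereas in malignant cells it was 0.172 to 0.205 times Egr1.

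The 7 host types that had 20 cells or more in all 4 mice were then tested against malignant cells with limma on log2(mean CPM + 1), with the mouse as a block. Adjusted p-values here are Benjamini-Hochberg values over 12064 genes, called at 0.05. Fibroblasts, the collagen-producing stromal cells, differed in 6 of 10 members, beside 45.2% of all genes. Fosb was higher by 1.12 ± 0.22 (SE; adjusted p = 1.5e-04) on the log2 scale, Zfp36 by 0.87 ± 0.17 (SE; adjusted p = 1.4e-04) and Jun by 0.72 ± 0.24 (SE; adjusted p = 0.0155). Atf3, Ier2 and Junb were lower, Atf3 with a log2 difference of -1.09 ± 0.23 (SE; adjusted p = 2.8e-04). The Jun call was lost without digoxin mouse 1 (adjusted p = 0.0927), and the Junb call was lost by edgeR (adjusted p = 0.0619) and without vehicle mouse 1 (adjusted p = 0.0778).

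Macrophages also differed in 6 of 10 members, beside 59.8% of all genes, with 2 higher and 4 lower. Zfp36 was higher by 1.60 ± 0.17 (SE; adjusted p = 5.3e-09) and Dusp1 by 0.65 ± 0.24 (SE; adjusted p = 0.0220). Egr1 was lower, with a log2 difference of -2.95 ± 0.22 (SE; adjusted p = 4.9e-12). Jun (-1.51), Ier2 (-1.37) and Jund (-0.79) were lower too. Fos, Fosb, Junb and Atf3 were not called, with log2 differences of -0.23 to 0.05. The Dusp1 call was lost without vehicle mouse 1 (adjusted p = 0.145) or digoxin mouse 1 (adjusted p = 0.0727). Without vehicle mouse 2, the host that stood apart, 6 members were called, beside 57.2% of genes.

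In NK cells all 10 members were lower than in malignant cells, beside 61.4% of genes that differed in either direction (4213 lower and 3197 higher). Their log2 differences ran from -3.66 ± 0.22 (SE; adjusted p = 3.6e-14) for Egr1 to -0.33 ± 0.13 (SE; adjusted p = 0.0341) for Jund. The Jund call was lost when vehicle mouse 1, vehicle mouse 2 or digoxin mouse 1 was left out (adjusted p = 0.0622, 0.0825 and 0.166). T cells were lower in 9 members, with Junb at -0.31 ± 0.16 (SE; adjusted p = 0.0847) as the exception. Of 12064 genes, 64% differed in T cells, 3898 lower and 3818 higher. The T cell calls for Dusp1 and Zfp36 were lost without vehicle mouse 1 (adjusted p = 0.0588 and 0.119). By edgeR the Zfp36 difference was -0.03 (adjusted p = 0.874), and from CPM of summed UMIs it turned to 0.15. Osteoclasts were lower in 9 members, from Atf3 at -4.35 ± 0.23 (SE; adjusted p = 1.5e-15) to Fos at -0.83 ± 0.19 (SE; adjusted p = 5.5e-04). Of 12064 genes, 62.3% differed in osteoclasts, 4602 lower and 2913 higher. By edgeR the osteoclast Fos call was lost (adjusted p = 0.0586). Zfp36 was not called in osteoclasts, at -0.33 ± 0.17 (SE; adjusted p = 0.0957). Microglia were lower in 7 members and higher in Zfp36 by 1.22 ± 0.17 (SE; adjusted p = 4.2e-07), 8 calls beside 69.2% of genes. Epithelial cells were lower in 6 members (Egr1, Junb, Ier2, Fos, Dusp1 and Jund). Of 12064 genes, 52% differed there, 2498 lower and 3778 higher.

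**Figure D2:**
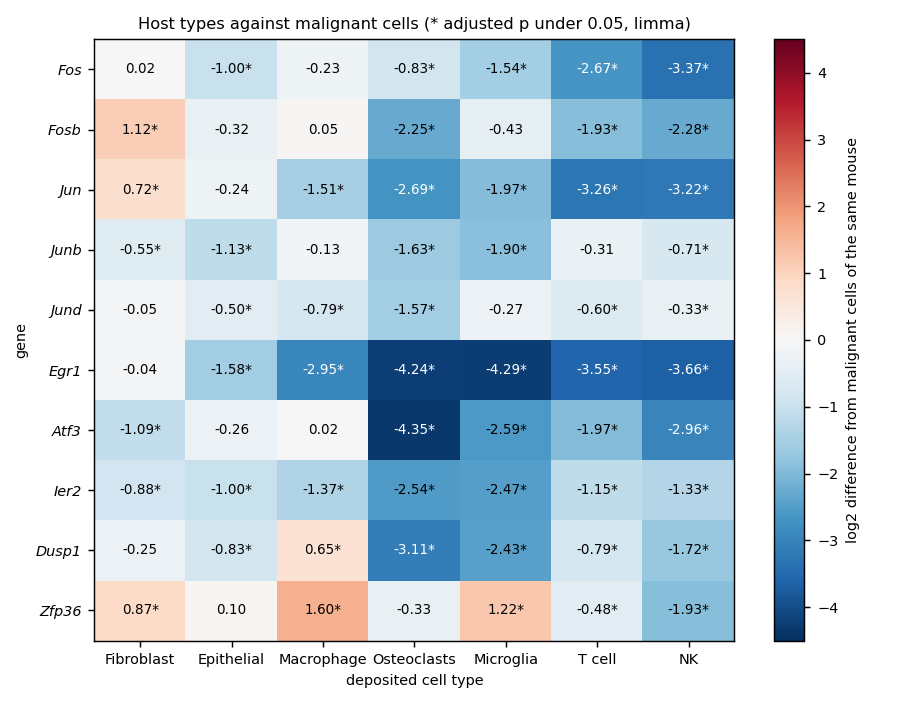
Log2 difference of each gene (rows) in 7 deposited types (columns) from malignant cells of the same mouse, from limma over 4 mice. Blue is lower and red is higher than in malignant cells, an asterisk marks an adjusted p under 0.05, and Zfp36 is red in fibroblasts, macrophages and Microglia where Egr1 and Ier2 are blue or near 0.

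The median log2 difference of the 10 members was -1.93 in Microglia, -2.11 in NK cells and -2.40 in osteoclasts. Over all genes it was -0.13, -0.11 and -0.21. In fibroblasts and macrophages the members' medians were -0.04 and -0.18, with rises and falls in both. Median depth per cell was below that of malignant cells in all 7 types. It was 9197 to 10460.5 UMIs in Microglia, 10992 to 12449 in NK cells, 17484 to 21101 in Epithelial cells, 22907 to 28744 in osteoclasts and 18866 to 36748 in fibroblasts, each over the 4 mice. The part of depth in the differences from malignant cells was not tested. The deposited types rest on expression, so these are differences between named types. How far each type responded to dissociation was not tested and cannot be told apart from its level in the tumor.

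Macrophages were divided further by the deposited sub-clusters, M1, M2 and a highly proliferative M2. Within every mouse, M2 cells had more Jun than M1 cells, by 1.62 to 2.21 times. Fos was higher by 1.22 to 1.32 times and Dusp1 by 1.25 to 1.42 times. Fosb, Jund, Egr1, Atf3 and Zfp36 were also above M1 in 4 of 4 mice. Ier2 went the other way, at 0.740 to 0.918 times the M1 level, and Junb was above M1 in 3 mice. In highly proliferative M2 cells, Junb (0.698 to 0.762 times M1), Jund, Egr1 and Ier2 were below M1 in all 4 mice, while Fos and Jun were above. The sub-clusters were drawn on these cells' expression, so the ratios describe them and carry no test. Median mitochondrial UMIs were 5.22% to 7.46% in M2 and 3.74% to 4.63% in M1. Median depth was 25066 to 28898 UMIs in highly proliferative M2 cells and 12918 to 14702 UMIs in M1. The part of these measures was not tested.

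The effect of digoxin was compared between 2 vehicle and 2 digoxin mice within each population, with limma over all genes of that population. Leaving out a mouse leaves 1 group with a single mouse, which is then assumed to vary like the pair in the other group, so calls and adjusted p-values from 3 mice rest on the spread of 1 pair. No member was called in any of the 8 populations, and edgeR and DESeq2 on summed UMIs also called 0 members in each. At an unadjusted p under 0.05, limma gave 3 members in Epithelial cells, 2 each in malignant cells, macrophages and Microglia, 1 in fibroblasts and 0 in the other 3 types. The share of all genes was 5.77% in Epithelial cells, 4.04% in macrophages, 4.78% in Microglia, 2.97% in fibroblasts, and 4.28% to 6.38% in the 3 with none. In malignant cells all 10 members had lower estimates with digoxin, where 47.2% of 17138 genes had higher ones and 0% were called. The 10 estimates come from the same 4 mice and are not independent of one another. Those of Atf3, Fosb and Junb turned to 0.016, 0.0026 and 0.012 without digoxin mouse 2, and that of Junb to 0.062 without vehicle mouse 2. Ier2 was at 831 and 930.2 CPM with vehicle and 723 and 554 CPM with digoxin as above, a log2 difference of -0.47 ± 0.14 (SE; adjusted p = 1.00), with an unadjusted p of 0.0186. For Jun the log2 difference was -0.32 ± 0.12 (SE; adjusted p = 1.00), with an unadjusted p of 0.0365. Both digoxin mice were below both vehicle mice in these genes, and in 5 of the 10 members, beside 14.5% of 7761 genes with a mean of at least 10 CPM. The remaining 5 overlapped, among them Fos at -0.20 ± 0.14 (SE; adjusted p = 1.00). The members' median was -0.22 and that of all genes -0.01, with 2 members and 3.41% of genes at an unadjusted p under 0.05. Digoxin mouse 2 had the lowest value of all 10 members, and vehicle mouse 2 the highest of 8. Malignant cells of vehicle mouse 2 were also the shallowest, at a median of 46799 UMIs, against 57658 in vehicle mouse 1. The digoxin mice had 55363 and 56121 UMIs. The part of depth in these differences was not tested.

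The share of malignant cells with a UMI was compared after thinning each cell to 3000 UMIs, which left out no cell. Ier2 was found in 73.4% and 74.4% of cells with vehicle and in 68.6% and 64.1% with digoxin. Zfp36 was found in 47.5% and 49.1%, against 44.4% and 38.9%. These genes had the largest drops. The digoxin mice were below the vehicle mice in 9 of the 10 members (all but Dusp1), beside 15.6% of 7761 genes. The two-sided exact permutation test gave p = 0.3333 for each of the 9, the smallest that 2 against 2 mice allow. Without thinning the shares were 96.7% to 97.6% for Ier2. Free RNA can add UMIs to any cell, and the lowest thinned share of any member, Atf3 in osteoclasts, was 2.81% to 6.93%.

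Macrophages gave lower estimates with digoxin in 9 members, where 48.5% of 13734 genes had higher ones and 0% were called. Without digoxin mouse 2, Fosb, Junb and Zfp36 stood at 0.078, 0.055 and 0.041, and Junb stood at 0.00027 in cells of up to 10% mitochondrial UMIs. Jun was at 440.1 and 705 CPM with vehicle and 395 and 275 CPM with digoxin, a log2 difference of -0.76 ± 0.26 (SE; adjusted p = 1.00). Without vehicle mouse 2, whose host stood apart, its log2 difference was -0.42. Macrophages had a median of 5.20% and 6.44% mitochondrial UMIs with vehicle and 4.74% and 4.53% with digoxin. Jun in the quartile of lowest mitochondrial share was 0.430 to 0.646 times that in the highest. M2 cells, higher in Jun than M1, were 1511 of 2456 macrophages in vehicle mouse 2 and 948 of 2418 in vehicle mouse 1. With digoxin they were 1136 of 2748 and 1191 of 2741. The part of either in Jun was not tested. Atf3, at 376 and 467 CPM with vehicle and 328 and 225 CPM with digoxin, gave -0.62 ± 0.20 (SE; adjusted p = 1.00). In both genes the digoxin mice lay below the vehicle mice, as in 4 of the 10 members, beside 14.7% of 7650 genes with a mean of at least 10 CPM. Digoxin mouse 2 was again the lowest in 9 of 10 members. The 11 heat shock genes, another part of the dissociation response, summed highest in that mouse in 7 of the 8 populations. In malignant cells their sum was 8803 and 8306 CPM with vehicle and 8764 and 9850.0 CPM with digoxin, and in macrophages 5257 and 5212 against 5433 and 6053 CPM. The part of handling in the member values was not tested.

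Epithelial cells, with endothelial markers, had higher estimates with digoxin in 9 members, where 50.5% of 10272 genes had higher ones and 0.467% were called. From CPM of summed UMIs, by edgeR and by DESeq2 the estimates of Atf3 (-0.20, -0.15 and -0.15) and Jund (-0.12, -0.14 and -0.14) were lower instead. Ier2, the 1 lower estimate, turned to 0.029, 0.015 and 0.018. Fosb was at 435 and 411 CPM with vehicle and 601 and 692 CPM with digoxin, a log2 difference of 0.61 ± 0.12 (SE; adjusted p = 0.0652). Dusp1 was at 437 and 444 CPM with vehicle and 560.5 and 637 CPM with digoxin, a log2 difference of 0.44 ± 0.12 (SE; adjusted p = 0.255). Both digoxin mice exceeded both vehicle mice in these genes, among 3 of the 10 members, beside 17.7% of 8423 genes. Neither passed the threshold. In this type digoxin mouse 2 was the highest in 7 of the 10 members, and vehicle mouse 2 was the lowest in 7. Leaving out vehicle mouse 1 gave 4 calls (Fosb, Egr1, Junb and Dusp1), beside 3.2% of genes. Leaving out vehicle mouse 2 gave 2 (Fosb and Dusp1), beside 2.3%, and Egr1 then stood at -0.44 against 0.19 with all mice. With the replicate number as a block Fosb was called (adjusted p = 0.0462), beside 0.827% of genes.

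Mast cell markers moved with the treatment in the Epithelial type. Mcpt4, Cpa3, Kit and Cma1, genes of mast cell proteases and the stem cell factor receptor, summed to 59.4 and 223 CPM with vehicle and to 3803 and 3721 CPM with digoxin, while endothelial markers summed to 2719.9 to 3042 CPM. Cells with over 1000 CPM of these 4 genes were left out in an alternative chosen after seeing the data, which left 80 of 80, 97 of 98, 78 of 83 and 80 of 86 cells. Fosb was then at 435 and 408 CPM with vehicle and 546 and 615 CPM with digoxin. Its estimate was 0.46 ± 0.12 (SE; adjusted p = 0.539). Dusp1 had a difference of 0.31 ± 0.12, and Jund turned here too, to -0.097. Over all genes, 3 of 10219 were called for digoxin without these cells, against 48 with them, and 0 against 6 for the interaction. The members called against malignant cells were 6 either way.

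The members as a set showed no common direction in the smaller host types, with 3 to 8 of the 10 estimates higher with digoxin. Fosb (0.13 to 0.80) and Junb (0.0073 to 0.24) had estimates above 0 in each of these types. Some of these turned with 1 mouse left out. Fibroblasts had 0% of 9292 genes called. Their median depth was 36748.5 and 18866 UMIs with vehicle and 31632 and 28822 UMIs with digoxin, and its part was not tested. Ier2 there was at 382 and 741 CPM with vehicle and 371 and 257 CPM with digoxin, a log2 difference of -0.78 ± 0.33 (SE; adjusted p = 0.999). Without vehicle mouse 1, which was lowest in 8 members, 5 members were called lower, beside 1.51% of genes called lower. Junb then stood at -0.52 (adjusted p = 0.0135), against 0.01 with all mice. Without vehicle mouse 2, Fos and Jun stood at 0.39 and 0.31, against -0.03 and -0.09. Microglia had 0% of 5818 genes called and gave Fosb at 487 and 274 CPM with vehicle and 567 and 716 CPM with digoxin, a log2 difference of 0.80 ± 0.23 (SE; adjusted p = 0.711). Its digoxin mice lay above its vehicle mice, as in 3 of the 10 members, beside 17% of 7520 genes. Digoxin mouse 2 was the highest in 7 of the 10 members there, and vehicle mouse 2 the lowest in 7. Fosb was called without vehicle mouse 1 (adjusted p = 3.8e-07) or digoxin mouse 1 (adjusted p = 0.00444). Those fits called 1.27% and 0.965% of genes. NK cells (0.0765% of 9147 genes called) had Fosb at 0.62 ± 0.31 (SE; adjusted p = 0.780) and Zfp36 at 0.51 ± 0.26 (SE; adjusted p = 0.780), and both were called without vehicle mouse 1 (adjusted p = 1.5e-04 and 0.0146), beside 1.48% of genes. Without vehicle mouse 2 Fosb stood at -0.095 in NK cells. T cells (0% of 8930 genes called) and osteoclasts (0.0128% of 7803) overlapped between groups in all 10 members. Of genes with a mean of at least 10 CPM, 33.1% and 37.5% did not overlap in these types. In Microglia, Dusp1 was also called without vehicle mouse 1 (adjusted p = 0.00245). In T cells, Dusp1 was called lower without vehicle mouse 1 (adjusted p = 0.0256), beside 2.17% of genes called.

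**Figure D3:**
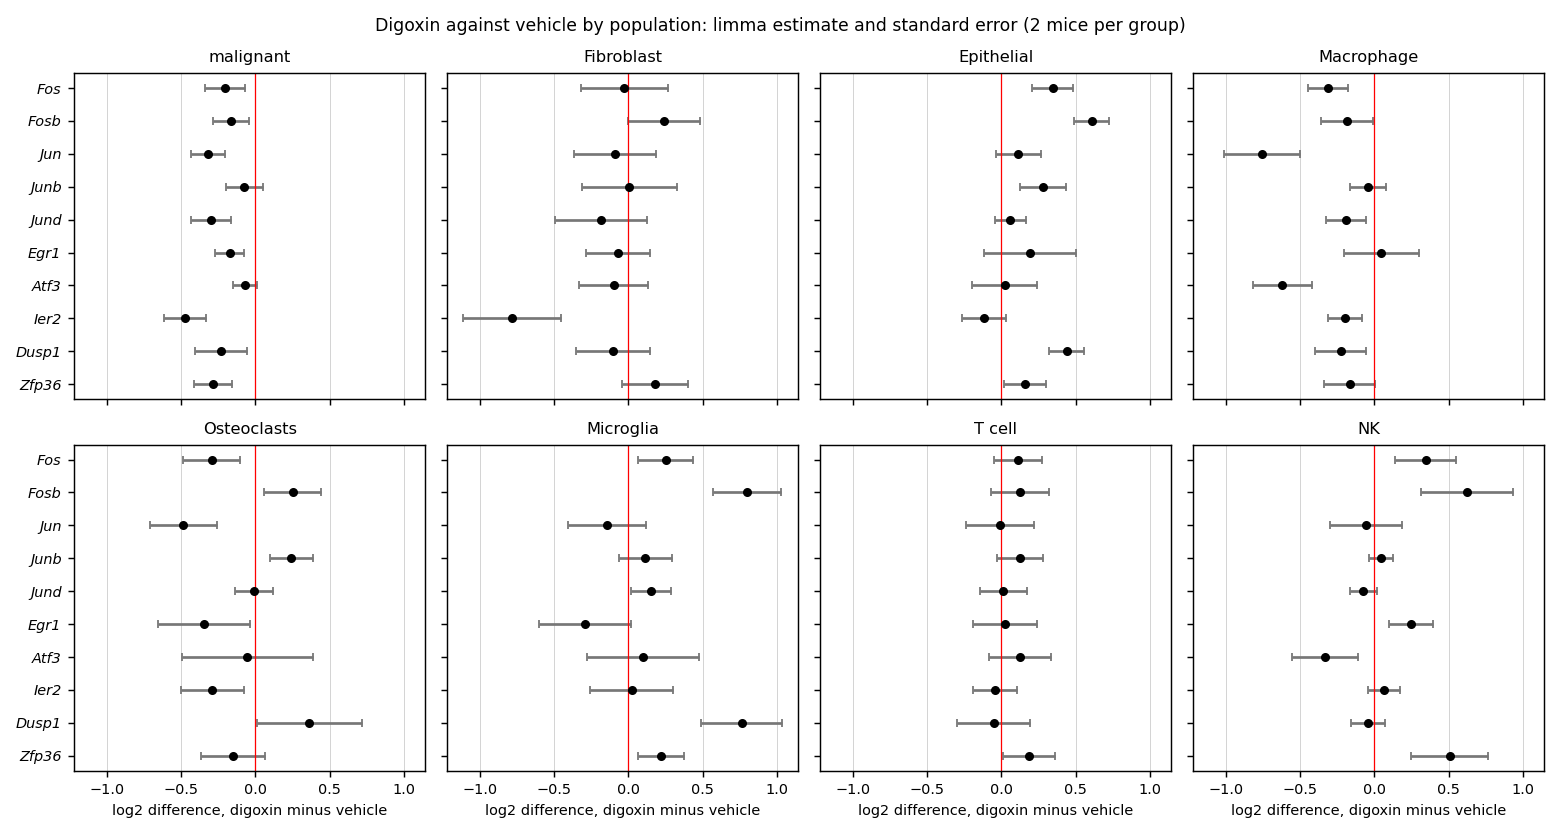
Log2 difference between digoxin and vehicle mice for each gene in 8 populations, with the limma estimate as a point and its standard error as a bar (2 mice per group). All 10 points lie left of 0 in malignant cells and 9 lie right of 0 in Epithelial cells, though the signs of Atf3, Ier2 and Jund there turn from summed UMIs and others turn with 3 mice. None of these points passed the threshold, and Epithelial Fosb was called in the fit with a replicate block.

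Whether the digoxin effect differed between a host type and malignant cells was tested as an interaction within the mouse. The SE of a gene is again pooled over populations here. No member was called by limma or edgeR in any of 7 types, beside 0.0497% of 12064 genes for Epithelial, 0.0166% for Microglia, and 0% for macrophages, 0% for fibroblasts, 0% for NK cells, 0% for osteoclasts and 0% for T cells. At an unadjusted p under 0.05 there were 2 members in Microglia, 1 in NK cells and 0 in the other 5 types, beside 8.86% of genes in Microglia and 1.72% in NK cells. Those were Fosb and Dusp1 in Microglia, with differences of 0.97 ± 0.42 (SE; adjusted p = 0.515) and 0.99 ± 0.47 (SE; adjusted p = 0.564), and Zfp36 in NK cells, with 0.79 ± 0.34 (SE; adjusted p = 1.00). For Jun in macrophages the difference from malignant cells was -0.44 ± 0.50 (SE; adjusted p = 1.00). The opposite signs in malignant and Epithelial cells were therefore not shown to differ, with Fosb at 0.77 ± 0.42 (SE; adjusted p = 1.00).

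Within malignant cells the members varied widely and together. The 10th percentile of Fos over cells was 66.0 to 96.3 CPM in the 4 mice and the 90th was 4568 to 6129.8 CPM. In macrophages the 10th percentile was 302 to 398 CPM and the 90th 3266 to 4505 CPM. Low Fos was thus found in some malignant cells of every mouse at a level that few macrophages had.

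Pearson correlations across cells were computed within each mouse on the deposited log values and averaged over mice, as a description. Cells of a mouse share its library, dissociation and depth range. In malignant cells the 45 member pairs had r from 0.451 to 0.862, with a median of 0.669. The closest pair was Fos and Fosb, at 0.840 to 0.879 in the 4 mice, and the loosest Jun and Atf3, at 0.422 to 0.494. With depth and mitochondrial share taken out the median was 0.654. In macrophages the median was 0.350 and the range 0.0159 to 0.679. There Fos went most closely with Dusp1 (0.619 to 0.731), while Jun and Junb had r of -0.0407 to 0.0720, against 0.426 to 0.583 in malignant cells. Macrophages were shallower (median 16070 to 17049 UMIs per cell in each mouse) than malignant cells (46799 to 57658). The part of this difference in depth in the lower r of macrophages was not tested. Among 10892 genes, the 5 most correlated with Fos in malignant cells were Fosb (0.862), Junb (0.813), Egr1 (0.807), Dusp1 (0.801) and Nr4a1 (0.775), a nuclear receptor that is itself an immediate early gene. For Atf3 they were Fos (0.609), Dusp1 (0.581), Ier2 (0.569), Nr4a1 (0.568) and Junb (0.554).

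**Figure D4:**
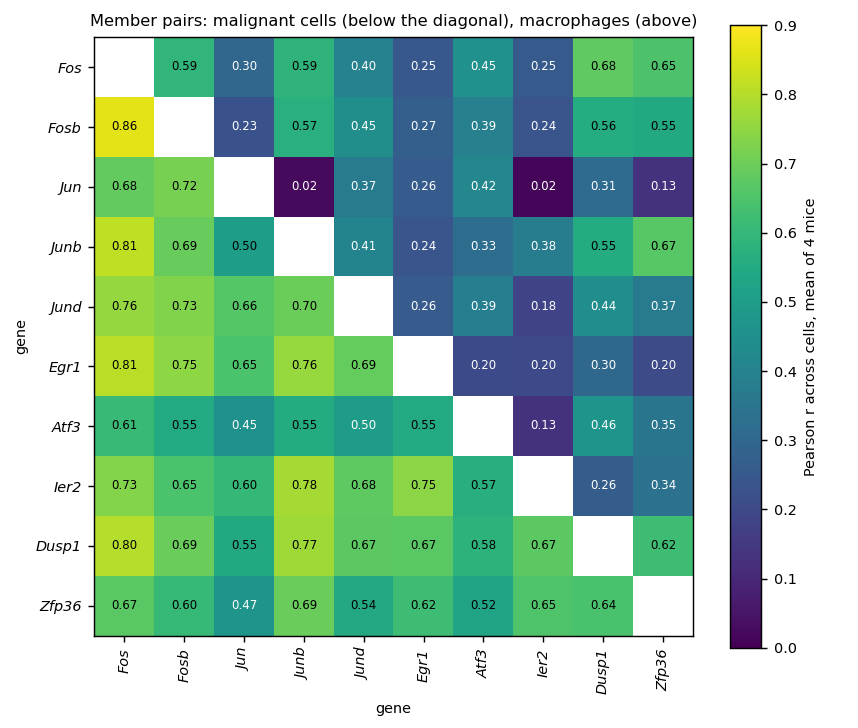
Pearson r across cells for each pair of genes, as the mean of 4 mice, in malignant cells (below the diagonal) and macrophages (above it). Fos and Fosb reach 0.862 in malignant cells, and the Jun row falls to 0.0159 in macrophages.

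Levels also moved with the depth of a cell. In each mouse, malignant cells were divided into quartiles by total UMIs, and the 10 genes summed to 2.29 to 2.80 times as many CPM in the lowest as in the highest quartile. Junb had the widest step, 3.52 to 4.51 times, followed by Fos at 2.72 to 3.72 times. Atf3 had 1.32 to 1.69 times. In macrophages the same ratio of the sum was 1.30 to 1.69. Weighting cells by depth gave a malignant Fos level of 1839 CPM over the 4 mice, against 2380.1 CPM as a mean over cells. By mitochondrial share the populations differed in sign. The lowest quartile had 1.10 to 1.37 times the sum of the highest in malignant cells and 0.636 to 0.775 times in macrophages. The sources of these gradients were not tested.

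**Figure D5:**
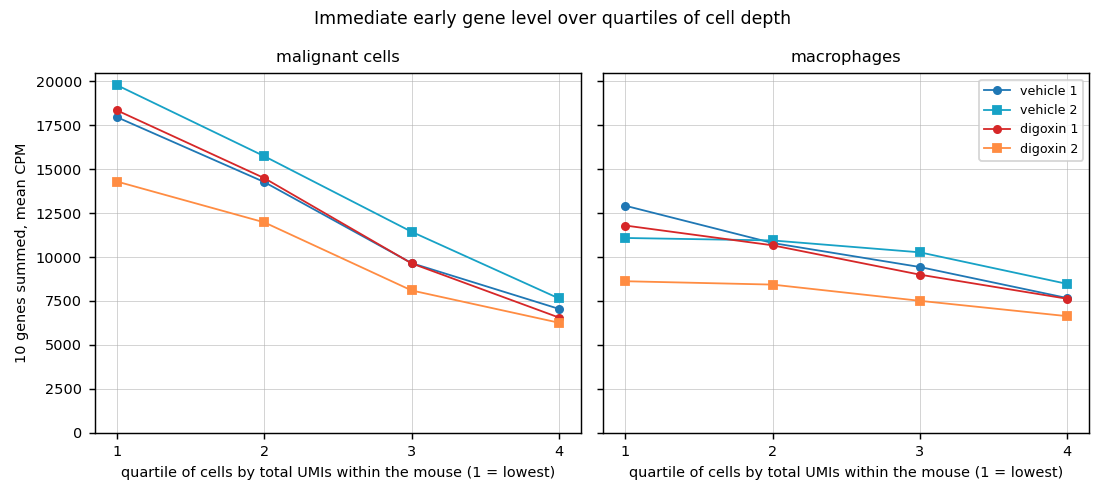
Sum of the 10 genes in mean CPM (axis from 0) over quartiles of cells by total UMIs within each mouse, for malignant cells and macrophages, with 1 line per mouse. All 4 malignant lines drop from quartile 1 to quartile 4, by 2.29 to 2.80 times.

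Other genes of the pathway were read from lists. Of 11 other AP-1 and bZIP partners, 10 differed in macrophages, 8 higher and 2 lower, beside 59.8% of all genes. Maf, a bZIP factor of macrophages, was higher by 4.23 ± 0.32 (SE; adjusted p = 4.4e-12). Fosl1, a Fos relative induced by sustained ERK signalling, was lower in every one of the 7 host types tested, from a log2 difference of -1.41 in fibroblasts to -4.88 in osteoclasts. Its correlation with Fos across malignant cells was -0.340 to -0.247 in the 4 mice, the opposite sign to the members. Jdp2, a bZIP repressor of AP-1, was higher in osteoclasts by 4.80 ± 0.24 (SE; adjusted p = 5.1e-16), and Batf, a lymphocyte bZIP factor, was higher in NK cells by 4.32 ± 0.33 (SE; adjusted p = 3.4e-12).

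Of 27 other immediate early genes tested, 20 differed in macrophages (9 higher, 11 lower) and 20 in NK cells (2 higher, 18 lower), beside 59.8% and 61.4% of all genes. The serum-responsive genes Ctgf and Cyr61 were lower in NK cells by log2 differences of -4.75 ± 0.32 (SE; adjusted p = 3.4e-13) and -4.45 ± 0.29 (SE; adjusted p = 1.7e-13). Zfp36l2, a relative of Zfp36, was higher there by 2.71 ± 0.15 (SE; adjusted p = 2.3e-15). Across malignant cells, 26 of these 27 genes had an r above 0 with Fos, with a median of 0.413. The share over all genes is not given here. An r above 0 was also found for 9 of the 11 other AP-1 and bZIP partners, with a median of 0.0841. It was found for 9 of the 12 ERK feedback genes, 10 of the 17 upstream genes and 7 of the 8 listed AU-rich targets of Zfp36. The 12 genes of the ERK feedback list had a median r of 0.0577, with Etv4, an ERK target factor, at -0.325. The 17 upstream kinases and factors had a median of 0.0116. The 11 heat shock genes had a median of -0.0590, from Hspd1 at -0.451 to Dnajb1, a co-chaperone, at 0.581. Only 3 of the 11 had an r above 0 in malignant cells. In macrophages the heat shock genes had r with Fos from -0.127 to 0.0718.

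None of these lists had a member called for digoxin in malignant cells. Of 8 mRNAs listed as AU-rich targets of Zfp36, 4 to 8 were tested in each population. Their median log2 difference with digoxin was 1.44 in NK cells, 1.19 in Epithelial cells, 1.19 in Microglia and 1.14 in fibroblasts. It was 1.10 in T cells, 0.82 in osteoclasts, 0.54 in macrophages and 0.12 in malignant cells. Over all genes the medians ran from -0.04 to 0.03. In NK cells 5 of the 8 were tested and 2 of them were called higher with digoxin, beside 0.0765% of genes. Il1b was at 7.03 and 10.3 CPM with vehicle and 101 and 55.2 CPM with digoxin there, a log2 difference of 2.99 ± 0.31 (SE; adjusted p = 5.4e-04). Cxcl2 was at 99.9 and 54.1 CPM with vehicle and 347 and 322 CPM with digoxin, a log2 difference of 2.17 ± 0.21 (SE; adjusted p = 5.4e-04). The digoxin values exceeded the vehicle values in both genes. Neither was called once cells marked as doublets were left out, with Il1b at 1.85 (adjusted p = 0.320) and Cxcl2 at 1.32 (adjusted p = 0.851). DESeq2 did not call Il1b (adjusted p = 0.930). Macrophages held Cxcl2 at 4472 and 3438 CPM with vehicle and 5552 and 5873 CPM with digoxin, above every NK value, and the part of free macrophage RNA was not tested. Cxcl1 was called higher in Epithelial cells, by 0.80 ± 0.14 (SE; adjusted p = 0.0466), beside 0.467% of genes. That call was lost in 9 of 13 alternatives (adjusted p = 0.0625 to 0.999), with all 4 mice by edgeR, by DESeq2, from CPM of summed UMIs, with no filter on low genes, with cells of up to 10% mitochondrial UMIs, without cells marked as doublets and without cells with mast cell markers, and with 3 mice without either digoxin mouse.

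Over the 32 values of 8 populations in 4 mice, the genes most like Fos, Egr1, Jun and Atf3 were taken from 9104 genes by Pearson r of log2(mean CPM + 1). These values share mice and types, so they are a description. For Fos they were Tm2d2 (0.942), Rtn4 (0.929) and Zfhx3 (0.916). For Egr1 they were the mesenchymal factors Gli3 (0.960) and Prrx1 (0.959), and P3h4 (0.953). For Jun they were Laptm4a (0.969), Gm26802 (0.948) and Mtch1 (0.941), and for Atf3 Carhsp1 (0.912), Snx24 (0.911) and Tanc2 (0.899). None of the 3 nearest to each of these 4 genes was a member.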

How the data were processed

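Single-cell RNA of 4 tumors was captured with a 10x 3′ kit, per the labels' protocols. Cell Ranger 3.0.2, Seurat 3.0.2 and the mm10 build are named in the submitters' processing notes. The deposited tables hold, for malignant and non-malignant cells separately, the natural log of 1 plus UMIs per 10000 UMIs of the cell, and the authors' cell tables give the UMI count, mouse and type of each cell. Undoing the log returned whole UMIs for 100% of values above 0 (within 0.01). The vehicle cells whose names carry 3 are placed in vehicle mouse 2 by the authors' cell table. No column of values belonged to no sample (0).

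Mean CPM per mouse and population was tested as log2(mean CPM + 1) with limma 3.58.1 (R 4.3.3) after edgeR's filter on low counts, with Benjamini-Hochberg adjustment over all genes that passed. All 10 genes passed in each population. Populations needed at least 20 cells in every mouse (8 did). Host types against malignant cells and the interaction were fitted over all 8 populations together. The levels of both tables were set on 1 scale by the cells' own UMIs. edgeR 4.0.16 and DESeq2 1.42.0 on summed UMI counts were alternatives, as were other pseudocounts, filters and leaving out each mouse. Scripts were tested on simulated data. Scrublet in scanpy 1.11.5 (expected share 0.06) marked 5.49% to 8.50% of malignant and 0.332% to 0.956% of host cells per mouse, and they were kept. The labels tell the mice apart only by group and replicate number, so p-values measure the spread between these samples. With counts per cell the precision is of counting only within a mouse.

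Members and lists were chosen with earlier results of these data known. From lists, genes were named by the 2 highest and 2 lowest differences past the threshold, or else the 3 smallest p. Not every gene that this rule names is reported here. Fosl1, Etv4, Hspd1 and Dnajb1 were named across cells after their values were seen.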

Additional observations from a re-analysis of the deposited data

How the results depend on the processing

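With 2 mice per group, single mice decided the digoxin calls. Leaving out 1 mouse at a time gave 0 to 4 members called in Epithelial cells, 0 to 5 in fibroblasts, 0 to 2 in Microglia, 0 to 2 in NK cells and 0 to 1 in T cells, against 0 in each with all mice. Most of these calls appeared without vehicle mouse 1. Each such fit has a single mouse in 1 group, and the cause was not tested.

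The replicate number as a block gave 1 member called in Epithelial cells (Fosb) and changed no other count of members. Deviations of same-numbered mice correlated at -0.523 in malignant cells and at -0.0973 to 0.0514 elsewhere. The values elsewhere were near 0 and gave no sign of a pairing. In malignant cells the deviations ran in opposite directions between same-numbered mice, and the source of this was not tested. Crossing the pairing in malignant cells, chosen after seeing the data, gave 0 of 17138 genes called.

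Of 98 alternatives to the counts of members called for digoxin, 90 stayed within 1.5 times, as did all 78 for host types and all 71 for the interaction. Over all genes, digoxin calls in Epithelial cells were 48 by limma, 0 by edgeR and 15 by DESeq2, with 3 to 341 when 1 mouse was left out and 3 without cells with mast cell markers. They were 7, 17 and 7 in NK cells (12 to 142), 1, 0 and 6 in osteoclasts (0 to 6), 0, 0 and 44 in malignant cells (0 to 5) and 0, 0 and 20 in macrophages (0 to 132). Limma and edgeR gave 0 in fibroblasts (0 to 462), Microglia (1 to 72) and T cells (0 to 198). Interaction calls by limma and edgeR were 6 and 4 for Epithelial, 2 and 1 for Microglia, and 0 by both for each of the other types. With 1 mouse left out these counts moved. Calls then appeared in each of the other types too, most in fibroblasts among those.

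Of the 80 digoxin estimates of members, 50 changed sign under at least 1 of the alternatives. With 1 mouse left out at a time, the estimates that changed sign covered these ranges. Malignant cells gave Atf3 from -0.15 to 0.016, Fosb from -0.33 to 0.0026 and Junb from -0.21 to 0.062. Epithelial cells gave Atf3 from -0.39 to 0.43, Egr1 from -0.44 to 0.82, Ier2 from -0.27 to 0.040 and Jun from -0.079 to 0.31. Fibroblasts gave Atf3 from -0.32 to 0.12, Dusp1 from -0.44 to 0.23, Egr1 from -0.29 to 0.15, Fos from -0.45 to 0.39 and Fosb from -0.078 to 0.56. They also gave Jun from -0.49 to 0.31, Junb from -0.52 to 0.54, Jund from -0.66 to 0.30 and Zfp36 from -0.056 to 0.41. Macrophages gave Egr1 from -0.34 to 0.43, Fosb from -0.44 to 0.078, Junb from -0.14 to 0.055 and Zfp36 from -0.38 to 0.041. Microglia gave Atf3 from -0.38 to 0.57, Egr1 from -0.65 to 0.071, Fos from -0.048 to 0.55, Ier2 from -0.35 to 0.40 and Jun from -0.54 to 0.25. They also gave Junb from -0.13 to 0.36. NK cells gave Dusp1 from -0.17 to 0.082, Fosb from -0.095 to 1.34, Ier2 from -0.0015 to 0.13, Jun from -0.58 to 0.47 and Junb from -0.047 to 0.13. They also gave Jund from -0.18 to 0.029 and Zfp36 from -0.0041 to 1.02. Osteoclasts gave Atf3 from -0.73 to 0.62, Dusp1 from -0.31 to 1.04, Egr1 from -0.88 to 0.19, Ier2 from -0.61 to 0.027 and Jund from -0.11 to 0.091. They also gave Zfp36 from -0.44 to 0.14. T cells gave Atf3 from -0.11 to 0.36, Dusp1 from -0.48 to 0.38, Egr1 from -0.28 to 0.34, Fos from -0.083 to 0.30 and Fosb from -0.14 to 0.39. They also gave Ier2 from -0.19 to 0.11, Jun from -0.29 to 0.27, Junb from -0.079 to 0.33 and Jund from -0.22 to 0.25. From CPM of summed UMIs, the turned values were Atf3 at -0.20, Ier2 at 0.029 and Jund at -0.12 in Epithelial cells, Junb at -0.019 in fibroblasts, Dusp1 at 0.071 and Ier2 at -0.038 in NK cells and Fos at -0.034 and Fosb at -0.12 in T cells. By edgeR, the turned values were Atf3 at -0.15, Ier2 at 0.015 and Jund at -0.14 in Epithelial cells, Junb at -0.045 in fibroblasts, Atf3 at -0.045 and Ier2 at -0.067 in Microglia, Dusp1 at 0.078 and Ier2 at -0.039 in NK cells and Fos at -0.0079 and Fosb at -0.071 in T cells. Without cells marked as doublets, the turned values were Atf3 at -0.00075 in Epithelial cells, Junb at -0.0047 in fibroblasts, Ier2 at -0.024 in Microglia, Atf3 at 0.00092 in osteoclasts and Jund at -0.0029 in T cells. By DESeq2, the turned values were Atf3 at -0.15, Ier2 at 0.018 and Jund at -0.14 in Epithelial cells, Junb at -0.042 in fibroblasts, Ier2 at -0.018 in Microglia, Dusp1 at 0.079 and Ier2 at -0.041 in NK cells and Fos at -0.0076 and Fosb at -0.071 in T cells. Without cells with mast cell markers, the turned values were Jund at -0.097 in Epithelial cells. With cells of up to 10% mitochondrial UMIs, the turned values were Junb at 0.00027 in macrophages and Junb at -0.036 in osteoclasts.

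Between host types and malignant cells, 7 of 70 estimates changed sign, 1 of them called with all mice (Zfp36 in T cells). Their ranges with 1 mouse left out follow, where a sign turned. Fibroblasts gave Egr1 from -0.090 to 0.053, Fos from -0.059 to 0.17 and Jund from -0.17 to 0.10. Macrophages gave Atf3 from -0.13 to 0.17. From CPM of summed UMIs, the signs turned for Egr1 at 0.043 in fibroblasts, Fos at 0.090 and Junb at 0.18 in macrophages and Zfp36 at 0.15 in T cells. By edgeR, the signs turned for Egr1 at 0.014 in fibroblasts and Fos at 0.053 and Junb at 0.13 in macrophages. Without cells marked as doublets, the signs turned for Fos at -0.0011 in fibroblasts. With cells of up to 10% mitochondrial UMIs, the signs turned for Atf3 at -0.033 in macrophages.

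For the interaction, 33 of 70 estimates changed sign. Those that turned with 1 mouse left out covered these ranges. Epithelial cells gave Atf3 from -0.40 to 0.59 and Egr1 from -0.27 to 1.01. Fibroblasts gave Atf3 from -0.17 to 0.11, Dusp1 from -0.12 to 0.38, Egr1 from -0.11 to 0.32, Fos from -0.16 to 0.51 and Ier2 from -0.70 to 0.086. They also gave Jun from -0.15 to 0.61, Junb from -0.32 to 0.48 and Jund from -0.29 to 0.52. Macrophages gave Dusp1 from -0.31 to 0.33, Egr1 from -0.18 to 0.62, Fosb from -0.11 to 0.075, Junb from -0.14 to 0.20 and Zfp36 from -0.099 to 0.34. Microglia gave Atf3 from -0.32 to 0.66, Egr1 from -0.58 to 0.34, Jun from -0.32 to 0.67 and Junb from -0.14 to 0.52. NK cells gave Dusp1 from -0.019 to 0.40, Jun from -0.28 to 0.81, Junb from -0.11 to 0.34 and Jund from -0.0010 to 0.45. Osteoclasts gave Atf3 from -0.65 to 0.68, Egr1 from -0.61 to 0.26, Fos from -0.22 to 0.039, Ier2 from -0.011 to 0.38 and Jun from -0.38 to 0.049. They also gave Zfp36 from -0.012 to 0.29. T cells gave Atf3 from -0.053 to 0.44, Dusp1 from -0.032 to 0.39, Egr1 from -0.10 to 0.50 and Junb from -0.11 to 0.51. From CPM of summed UMIs, the differences that turned were Atf3 at -0.15 in Epithelial cells, Egr1 at 0.0072 in Microglia and Atf3 at -0.066 in osteoclasts. By edgeR, the differences that turned were Atf3 at -0.14 in Epithelial cells, Atf3 at -0.065 in Microglia and Zfp36 at -0.062 in osteoclasts. Without cells marked as doublets, the differences that turned were Atf3 at 0.011 in fibroblasts. With cells of up to 10% mitochondrial UMIs, the differences that turned were Fosb at 0.044 in macrophages and Atf3 at -0.13 and Ier2 at -0.13 in osteoclasts. With a pseudocount of 10 CPM, the differences that turned were Atf3 at -0.0018 in osteoclasts. The cause of these sign changes was not tested.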

Other observations

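Neutrophils, dendritic cells and B cells had under 20 cells in at least 1 mouse and were not tested. Neutrophils, phagocytes that respond quickly to injury, had the highest Dusp1 and Junb of all populations. Their Dusp1 was at 4027 and 3628 CPM with vehicle and 1762 and 1870.3 CPM with digoxin, from 11 and 5 cells and from 34 and 23 cells. Junb was at 5168 and 3921 CPM with vehicle and 2906 and 2959 CPM with digoxin. The 2 groups did not overlap for 7 of the 10 members, these among them, and the vehicle values were the higher, beside 18.5% of genes with a mean of at least 10 CPM. The summed neutrophil markers ran from 6881 to 121043 CPM between these mice, and their part was not tested. In dendritic cells (18 and 21 against 14 and 10 cells) this held for 8 of the 10, beside 17.1% of genes, among them Fos at 893 and 590.2 CPM with vehicle and 151 and 172 CPM with digoxin. Macrophage markers summed to 1157 and 1336 CPM with vehicle and 81.9 and 632 CPM with digoxin in this type, where macrophages hold Fos at 1640.2 to 2339 CPM, and their part was not tested. In B cells it held for 2, beside 20.2% of genes.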
